A study of Homo sapiens with 13 samples.

Results

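A set of 10 genes of cytokine signalling, the suppressors of cytokine signalling SOCS1 to SOCS7 and CISH, the transcription factor STAT3 and the receptor LIFR, were followed by symbol in both count tables of a study of BMP signalling in human embryonic stem cells. They were 10 of 61546 features in each table. The cells were RUES2, a human embryonic stem cell line, carrying a GFP::SMAD4 fusion in every library, including the controls. In the time series, cells were sampled at 6 times from 0 to 42 h (4, 12, 20 and 28 h between) under 100 ng/mL BMP4, a ligand that activates BMP receptors, with 5 µM IWP2, an inhibitor of Wnt secretion, and ROCK inhibitor (RI). It held 7 libraries, 2 at 0 h and 1 at each later time, and the labels named the BMP4 treatment for the 0 h libraries too. In the dose response, cells were collected at 5 h with the same BMP4, IWP2 and RI and with 0, 10, 30, 100 or 300 nM LDN-193189 (LDN), a BMP receptor inhibitor. Other cells were in mTeSR medium alone (untreated), with 1 library for each condition, 6 in all. The untreated library lacked BMP4, IWP2 and RI together, so their effects cannot be told apart in comparisons with it.

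SOCS proteins and CISH carry an SH2 domain, which binds phosphorylated tyrosines, and a SOCS box, which recruits a ubiquitin ligase. In the classical pathway, cytokines such as LIF bind receptors that activate Janus kinases, the kinases phosphorylate STAT proteins, and STATs switch on genes that include several SOCS genes, so that the pathway limits itself. LIF receptor and STAT3 are known for holding mouse embryonic stem cells in the undifferentiated state, whereas human embryonic stem cells in standard culture depend on FGF and activin.

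Levels are given as scaled CPM, read counts relative to library size (CPM) after scaling between libraries by edgeR's TMM factors, except where levels of different genes are compared, which was done in FPKM, a value per gene length. Libraries of the time series held 37957385 to 71333471 counts and those of the dose response 15600931 to 33989998, the untreated library being the shallowest and having 7.89% mitochondrial counts against 4.22% to 4.49% with BMP4, and the time series ran from 7.6% in a 0 h library to 2.01% at 42 h. The time series was made from ribosome-depleted RNA and the dose response from polyA RNA, so no test was made across them. The cells changed in kind over the time series. All 5 amnion-like markers were between 0.0327 and 1.81 CPM at 0 h and between 158 and 3367 CPM at 42 h, and as early as 5 h the highest of them, GATA3, reached 72 CPM in the dose response. Of the 5 pluripotency markers NANOG went from 128 to 1.24 CPM, SOX2 from 374 to 13.4, DNMT3B from 1961 to 736 and LIN28A from 2928 to 2083, while POU5F1 was at 1331 and 1321 CPM. Markers of primitive streak, neural and trophoblast cells stayed at or below 3.53 CPM and those of blood at or below 0.143 CPM over the time series. Of the fibroblast markers COL1A2 was at 63.5 and 89.5 CPM and PDGFRA at 7.48 and 5.18 CPM at these times, and DCN was at or below 0.0204 CPM. The part of this change of cell type in the values below was not tested, and in bulk RNA a change in the cells present and a change in RNA per cell cannot be told apart.

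SOCS3 and SOCS1 rose over the time series, SOCS2 was several-fold higher from 4 h on, and LIFR was lower at 20 h and higher at 42 h than at 0 h. The linear trend over the 7 libraries called 4 of the 10 genes, SOCS3 and SOCS1 upward and STAT3 and CISH downward. Among all genes tested 19.2% were called upward and 17.5% downward, so 2 of 10 in each direction is close to the background. At 4 h, 2 of 10 genes were called upward and none downward, against 4.39% and 0.632% of all genes, and the same 2 genes, SOCS2 and SOCS3, were past a 2-fold difference between BMP4 and untreated cells at 5 h.

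**Figure D1:**
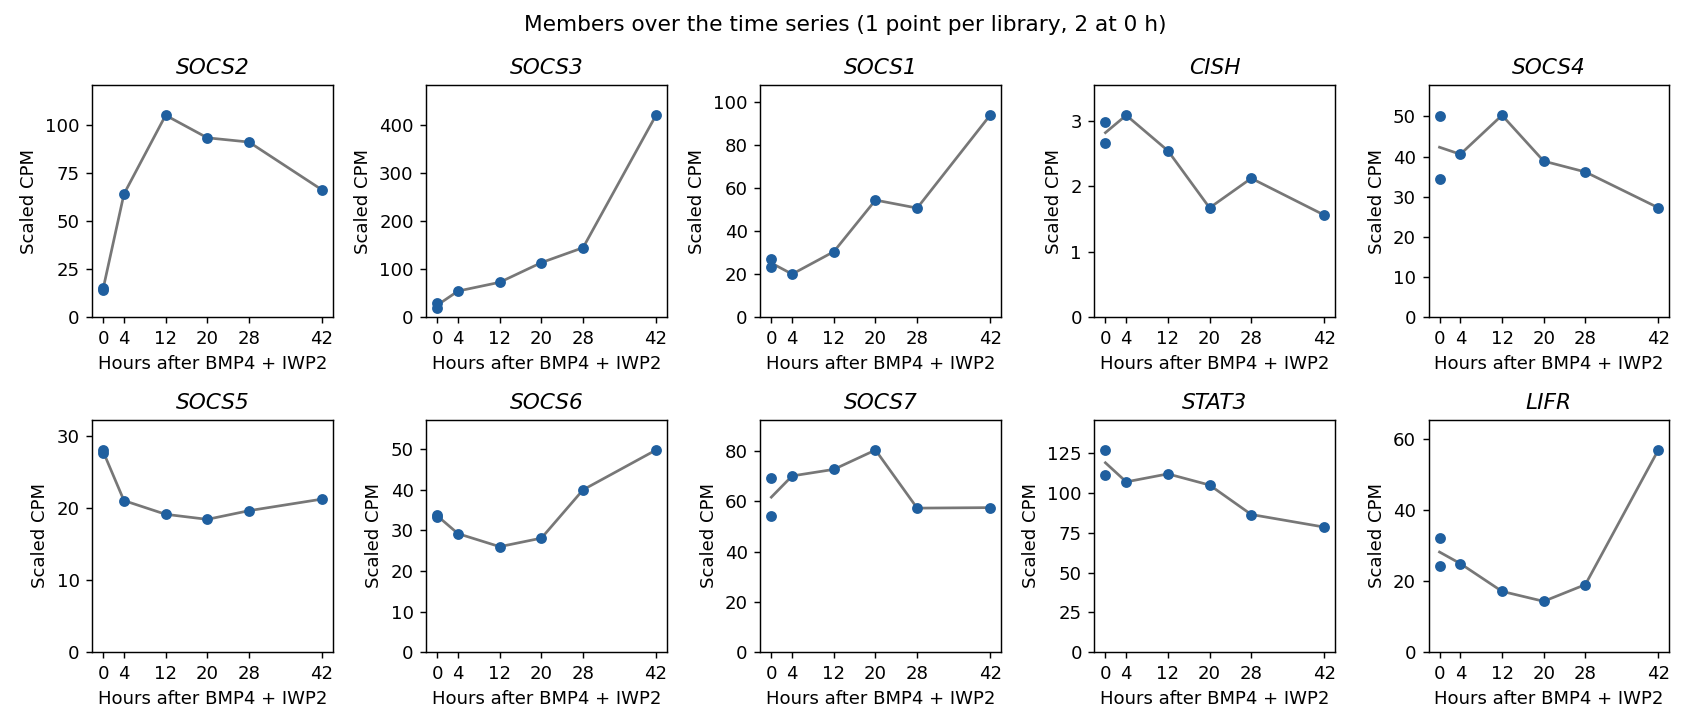
Scaled CPM of the 10 genes (vertical axes, from 0) against hours after BMP4 and IWP2 (horizontal axes). Each point is 1 library and lines join the values, with the mean of both libraries at 0 h. SOCS2 was at its highest level at 12 h, SOCS3, SOCS1, SOCS6 and LIFR at 42 h.

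SOCS2, an inhibitor of growth hormone receptor signalling, was called at 4 h and at 42 h (GRCh38 chromosome 12, 93569814 to 93583487, plus strand). It measured 14.2 and 15.5 CPM in the 0 h libraries, then 64.1, 105, 93.3, 91.1 and 66.3 CPM at 4, 12, 20, 28 and 42 h in turn. Every later library was above both 0 h libraries, and the highest, at 12 h, was 7.10-fold above the 0 h mean. By the quasi-likelihood test of edgeR, with p-values adjusted after Benjamini and Hochberg, SOCS2 rose by 4 h (log2 change 2.11 ± 0.32 SE, adjusted p = 3.21e-09) and was higher at 42 h (2.16 ± 0.32, adjusted p = 1.52e-10). The straight-line trend over hours was not called (0.041 log2 per hour ± 0.025, adjusted p = 0.236), while a curve with hours squared, added after its profile had been seen, was (adjusted p = 0.0101). That curve was tested as hours and hours squared together against no change, so its call does not by itself show a bend. From 12 h to 42 h the log2 ratio was -0.67, with a 95% binomial interval of -0.73 to -0.61 that covers counting error only.

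SOCS2 also had the steepest slope over LDN among the members called. At 5 h it measured 102 CPM with BMP4 and no LDN, 95 with 10 nM, 81.6 with 30 nM, 55.6 with 100 nM and 34.5 with 300 nM, against 11.7 in untreated cells. The level was lower at each higher dose, and it fell by 0.38 on the log2 scale per dose step (± 0.039 SE, adjusted p = 2.45e-05 by the same edgeR test over the 5 BMP4 libraries). With no LDN it was 8.73-fold above untreated, and with 300 nM it was still 2.95-fold above. Untreated cells also lacked IWP2 and RI, and the source of these differences was not tested. Between 0 and 30 nM the log2 ratio was -0.32 (counting interval -0.40 to -0.25), and between 30 and 300 nM it was -1.24 (-1.34 to -1.14).

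The antisense transcript SOCS2-AS1, on the opposite strand, followed a like course at a lower level. It was at 1.22 and 1.06 CPM in the 0 h libraries, 5.30 after 4 h, 9.62 as its highest level (12 h) and 2.75 CPM in the last library. It rose by 4 h (log2 change 2.22 ± 0.38, adjusted p = 2.32e-07 by edgeR's quasi-likelihood test) and fell with LDN (-0.39 log2 per step ± 0.076, adjusted p = 0.00297). The annotated exons of SOCS2 and SOCS2-AS1 share 277 of the 6477 exonic bases of SOCS2, and since the sources used here do not state whether counting used strand, reads from the shared bases cannot be assigned.

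The genes nearest to SOCS2 in profile, by root mean square difference of centred log2 values over 12 points (6 times and 6 dose-response libraries) among 9538 genes, were COL11A2 (0.272), ID3 (0.308) and NPAS1 (0.310). ID3, a target of BMP signalling, measured 30.6, 234, 365, 493, 328 and 220 CPM from 0 to 42 h in order, highest at 20 h where SOCS2 was highest at 12 h, and at 5 h from 320 CPM without LDN to 141 with 300 nM, against 53.7 untreated. All of these points come from the same 13 libraries, and the values are a description.

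SOCS3, the inhibitor that binds gp130 family receptors and Janus kinases, reached the highest level of the 10 genes (chromosome 17, 78356778 to 78360077, minus strand). It is itself a known target of STAT3.

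SOCS3 measured 20.3 and 30.9 CPM at 0 h, then 54.9, 73.1, 114, 145 and 420 CPM at 4, 12, 20, 28 and 42 h in turn. Each later time point was above the one before, and 42 h was 16.4-fold above the 0 h mean. It rose along the series (0.088 log2 per hour ± 0.0076 SE, adjusted p = 0.000143 by edgeR's quasi-likelihood test). It was higher by 4 h (log2 change 1.10 ± 0.32, adjusted p = 0.0177) and 42 h (4.03 ± 0.33, adjusted p = 2.75e-32). The 0 h libraries differed by 0.60 on the log2 scale, and the 4 h call was lost with DESeq2 and without the filter on low counts, both with an adjusted p of 0.0661.

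With LDN, SOCS3 was at 61.8 CPM with no LDN, 66.0 with 10 nM, 61.9 with 30 nM, 55.1 with 100 nM and 41.2 with 300 nM, against 28.6 untreated. The level did not differ between 0 and 30 nM beyond counting error (log2 ratio 0.00, interval -0.09 to 0.10) and was lower at 300 nM than at 30 nM (-0.59, -0.69 to -0.49). It fell by 0.14 on the log2 scale per dose step (± 0.030, adjusted p = 0.00581 by edgeR's quasi-likelihood test). The slope was -0.06 without the 300 nM library, -0.22 without the 0 nM library and -0.21 with the untreated library added. The trend was not called without the 300 nM library (adjusted p = 0.152), with DESeq2 (0.0550) or in FPKM with limma (0.0751). The divergent transcript SOCS3-DT rose along the time series (adjusted p = 0.0198 by the same edgeR test) from 0.829 and 1.19 CPM at 0 h to 4.62 CPM at 42 h, and its dose trend was not called (adjusted p = 0.423).

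The genes nearest to SOCS3 in profile were JDP2 (root mean square difference 0.162), MXRA5 (0.239) and ARID3A (0.248). JDP2, a repressor of the AP-1 family, measured 9.37 and 138 CPM at 0 and 42 h, and at 5 h went from 33.9 CPM without LDN to 24.4 with 300 nM.

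**Figure D2:**
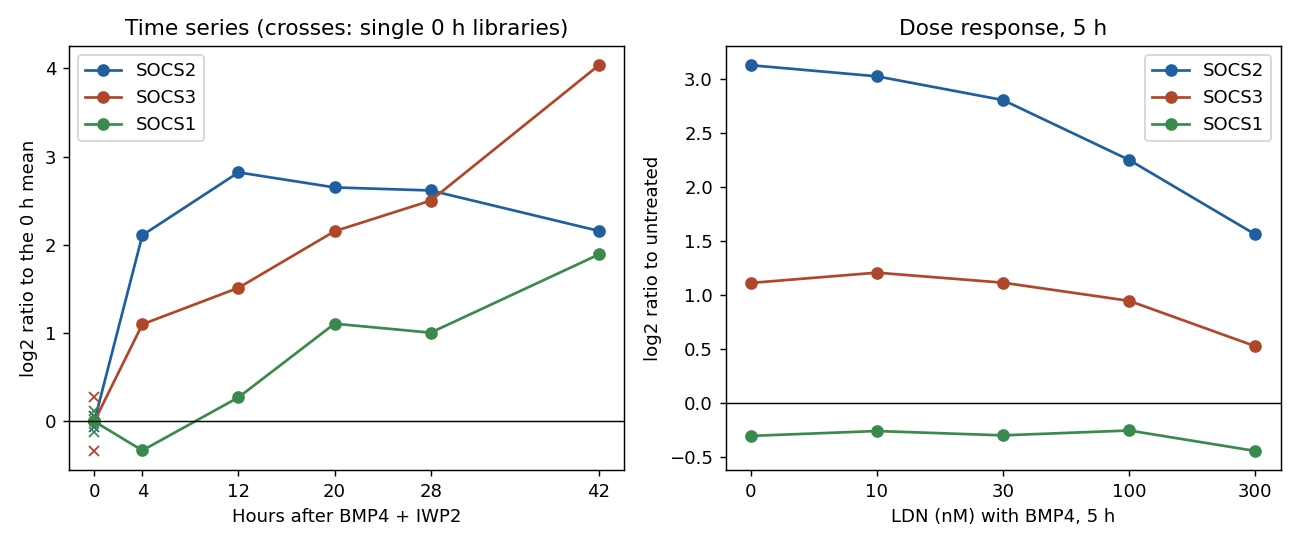
log2 ratio of SOCS1, SOCS2 and SOCS3 to the mean at 0 h against hours (left, crosses are the single 0 h libraries), and to the untreated library against LDN dose at 5 h (right, 1 library each). SOCS2 had the highest ratio at 4 h and SOCS3 at 42 h, and at 300 nM LDN both stayed above untreated while SOCS1 was below it at every dose.

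SOCS1, a direct inhibitor of Janus kinases, rose along the series with no call at 4 h and none over the LDN doses (chromosome 16, 11254417 to 11256204, minus strand). It measured 23.2 and 27.3 CPM at 0 h, then 20.1, 30.5, 54.4, 50.7 and 93.7 CPM at 4, 12, 20, 28 and 42 h in turn. The 4 h library was below both 0 h libraries and all later ones were above them. SOCS1 rose by 0.048 log2 per hour (± 0.0059, adjusted p = 0.000704 by edgeR's quasi-likelihood test), and was higher at 42 h (log2 change 1.89 ± 0.31, adjusted p = 1.29e-08), 3.71-fold by level. At 5 h it lay between 25.7 and 29.3 CPM in the 5 BMP4 libraries and at 34.9 CPM untreated, and its dose trend was not called (adjusted p = 0.401). RMI2 overlaps SOCS1 on the opposite strand, between 29.4 and 46.1 CPM, but shares none of its 1788 exonic bases.

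CISH, which limits signalling by STAT5 and is a known STAT5 target, was the lowest of the 10 genes (chromosome 3, 50606489 to 50611774, minus strand). The 250 bases before its RefSeq start (GRCh38.p14, chr3:50611775-50612024, minus strand) are shown because they hold 4 matches to TTCNNNGAA, the letters STAT proteins bind, marked in capitals.
CISH: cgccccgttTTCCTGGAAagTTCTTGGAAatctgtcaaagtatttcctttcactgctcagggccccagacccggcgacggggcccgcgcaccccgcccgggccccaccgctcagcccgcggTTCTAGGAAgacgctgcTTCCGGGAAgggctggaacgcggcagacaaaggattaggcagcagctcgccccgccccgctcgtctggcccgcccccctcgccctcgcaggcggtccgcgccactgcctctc
The matches lie 241, 230, 129 and 112 bases before the start, and the letters read the same on either strand. Of 35116 RefSeq promoter windows of 250 bases, 6.57% held TTCNNNGAA and 5 (0.0142%) held 4 or more. The matches describe letters and not sites. CISH measured 2.98 and 2.65 CPM at 0 h, then 3.08, 2.54, 1.67, 2.12 and 1.56 CPM at 4, 12, 20, 28 and 42 h in turn, on 83 to 194 counts a library. It fell by 0.022 log2 per hour (± 0.0072, adjusted p = 0.0457 by edgeR's quasi-likelihood test). The call was lost on leaving out 0 h replicate 1 (adjusted p = 0.0976) or the library at 4 h (0.0975), 12 h (0.0775), 20 h (0.0550), 28 h (0.0747) or 42 h (0.197), without the filter on low counts (0.151) and with the rank of the time point (0.0610). At 5 h it was 1.85, 2.01, 2.51, 2.72 and 2.7 CPM in order of LDN dose and 1.94 untreated, on 29 to 90 counts, with no call (0.15 log2 per step ± 0.060, adjusted p = 0.101). MAPKAPK3, on the opposite strand at 47.6 to 84.8 CPM, shares 218 of the 5056 exonic bases of CISH, and reads from those bases cannot be told apart without strand.

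The other windows searched, for 6 members in all, held TTCNNNGAA once in each of 2 windows of LIFR and not in those of SOCS1, SOCS4, SOCS6 and STAT3. GGCGCC, a GC-rich word like those SMAD proteins bind, also reads the same on either strand and stood in 16.4% of all windows. It stood once in the windows of SOCS1, SOCS4 and SOCS6 and in 1 window of LIFR. No promoter window was found for SOCS2, SOCS5 and SOCS7, so neither word was searched for in these genes.

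SOCS4, SOCS5, SOCS6 and SOCS7, the members with long N-terminal regions that act more on receptor tyrosine kinases, were called in none of the 4 tests. SOCS4 lay between 27.3 CPM at 42 h and 50.3 CPM at 12 h, with 50.2 and 34.5 CPM in the 0 h libraries, and its trend was -0.014 log2 per hour (± 0.0062, adjusted p = 0.118). Without 0 h replicate 2 that trend was called (adjusted p = 0.0230).

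SOCS5 was at 28.0 and 27.6 CPM at 0 h and between 18.4 and 21.2 CPM afterwards, every later library below both at 0 h. SOCS6 was at 33.9 and 33.3 CPM in the 0 h libraries, lowest after 12 h (26 CPM) and highest after 42 h (49.8 CPM). Both were called by the curve with hours squared (adjusted p = 0.0421 and 0.0157) and not by the straight line (0.216 and 0.0935), all by edgeR's quasi-likelihood test. The curve was added after the data had been seen and tested hours and hours squared together. Its calls do not by themselves show a bend, and the share of all genes it called is not given here. The straight line was called for SOCS5 on library totals (adjusted p = 0.0383 by the edgeR test) and for SOCS6 in FPKM with limma (adjusted p = 0.046). SOCS7 lay between 54.0 and 80.4 CPM, with both of its 0 h libraries (69.3 and 54.0) spread over much of that range.

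Over the LDN doses SOCS4 stayed between 30.4 and 33.1 CPM, SOCS5 between 18.1 and 20.9 and SOCS6 between 25.6 and 28.3. SOCS7 went from 44.5 CPM without LDN to 53.1 with 300 nM and 58.2 untreated (0.048 log2 per step ± 0.017, adjusted p = 0.0670), and its trend was called without the 100 nM library (adjusted p = 0.0365), without the filter on low counts (0.0381) and with the untreated library added (0.0465). Of 8 pseudogenes that carry a SOCS name, the largest count in any library was 15.

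STAT3, the transcription factor downstream of LIF and gp130, was the member with the highest level per length at 0 h (chromosome 17, 42313324 to 42388540, minus strand). It measured 127 and 111 CPM at 0 h, then 107, 112, 105, 86.5 and 78.6 CPM at 4, 12, 20, 28 and 42 h in turn. It fell by 0.014 log2 per hour (± 0.0036, adjusted p = 0.0191 by edgeR's quasi-likelihood test), and the contrast of 42 h against 0 h was not called (-0.60 ± 0.34, adjusted p = 0.160). The trend was not called on leaving out 0 h replicate 1 (adjusted p = 0.0504), 28 h (0.0639) or 42 h (0.167), or the filter on low counts (0.118). At 5 h it stayed between 103 and 109 CPM over the 5 doses, with 126 CPM untreated.

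LIFR, the receptor subunit that pairs with gp130, went down and then up (chromosome 5, 38474668 to 38608354, minus strand). It measured 32.0 and 24.3 CPM at 0 h, then 24.9, 17.1, 14.3, 19.0 and 56.8 CPM at 4, 12, 20, 28 and 42 h in turn. The libraries from 12 to 28 h were below both at 0 h, and that at 42 h was above both and 2.02-fold above their mean. It was higher at 42 h (log2 change 1.02 ± 0.30, adjusted p = 0.00320 by edgeR's quasi-likelihood test). By the same test the straight line was not called (adjusted p = 0.298). The curve, added after the data had been seen and testing hours and hours squared together, was called (adjusted p = 0.000265).

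With LDN, LIFR went from 17.3 CPM without LDN to 19.0, 19.0, 21.0 and 21.7 CPM with 10, 30, 100 and 300 nM, against 22.2 untreated. It rose by 0.081 log2 per dose step (± 0.021, adjusted p = 0.0175 by edgeR's quasi-likelihood test), 1 of the 3 members called over the doses. The call was lost without the 0 nM library (adjusted p = 0.137), the 100 nM library (0.0556) or the 300 nM library (0.0984), with DESeq2 (0.0642) and in the FPKM values with limma (0.840). LIFR-AS1, on the opposite strand, was at most 1.19 CPM.

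**Figure D3:**
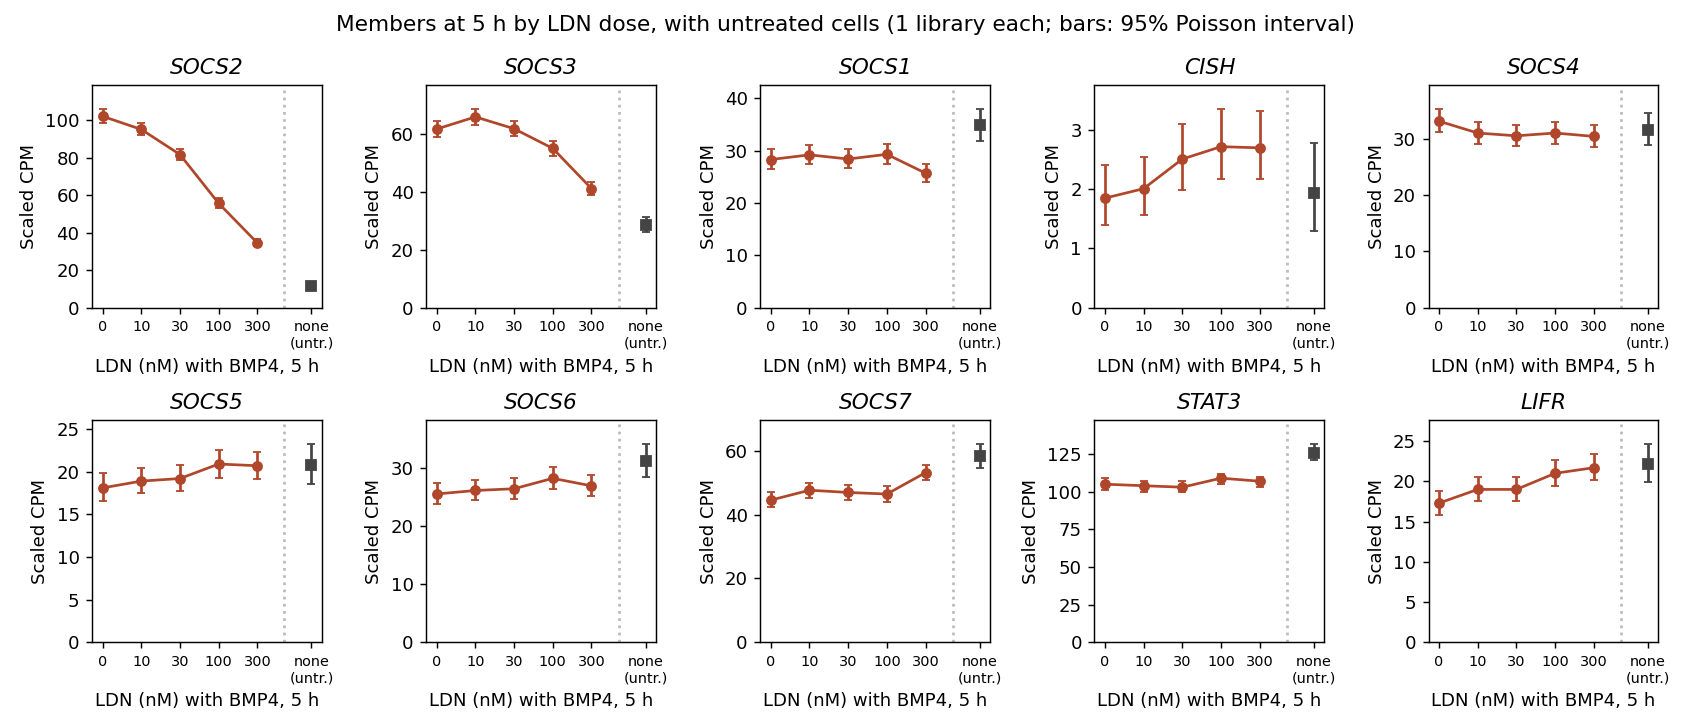
Scaled CPM of the 10 genes (vertical axes, from 0) at 5 h against LDN dose in nM, with BMP4 and IWP2, and in untreated cells (squares, right of the dotted line). Each point is 1 library and bars are 95% Poisson intervals of the count. SOCS2 and SOCS3 were lower at 300 nM than without LDN, and the intervals of SOCS4 and of STAT3 overlapped between these doses.

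Over the doses 1 of 10 genes was called upward (LIFR) and 2 downward (SOCS2 and SOCS3), against 10.4% and 10.9% of all genes. At 42 h against 0 h 4 of 10 were called upward (SOCS3, SOCS2, SOCS1 and LIFR) and none downward, against 19.9% and 17.8%. Past a 2-fold difference between BMP4 without LDN and untreated cells, with no test, were 2 of 10 upward, SOCS2 (log2 ratio 3.11) and SOCS3 (1.11), and none downward, against 5.26% and 2.41%. The median log2 change of the 10 genes at 42 h was 0.23, against -0.01 over all genes tested.

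**Figure D4:**
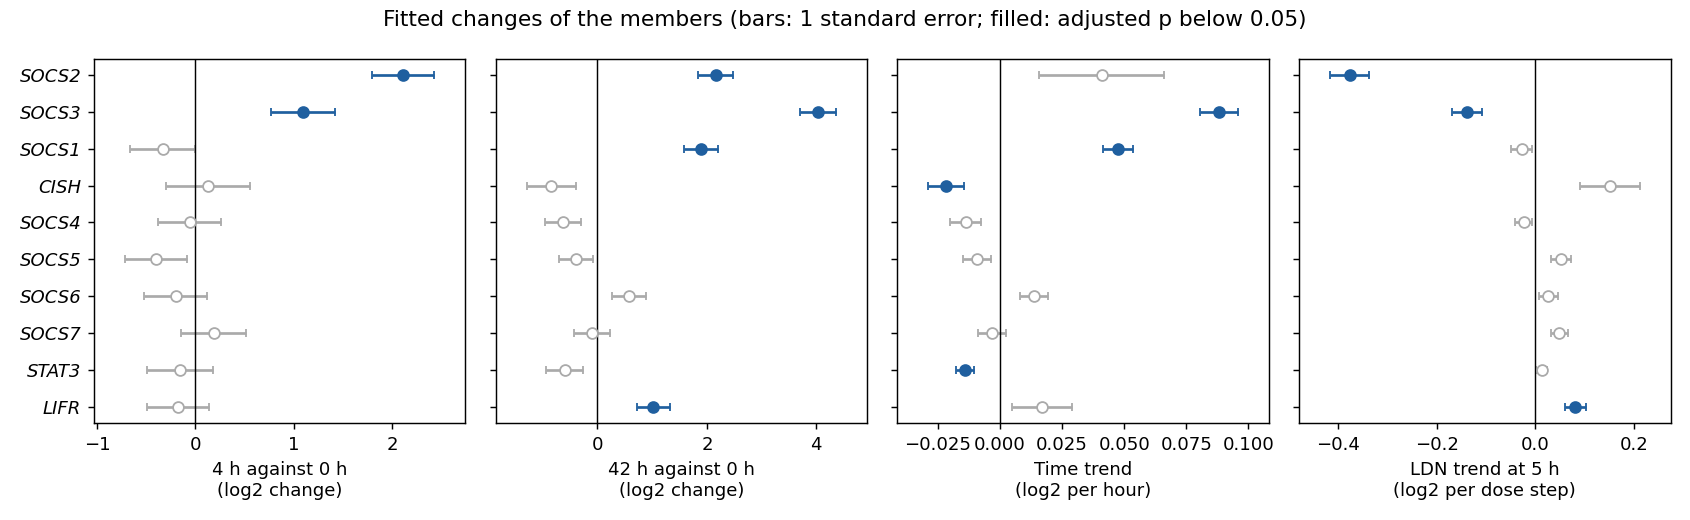
Fitted log2 changes of the 10 genes in 4 tests, from left 4 h against 0 h, 42 h against 0 h, per hour and per LDN dose step. Bars are 1 standard error and filled points have an adjusted p below 0.05. SOCS3 was called in all 4 tests and SOCS2 in 3.

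Compared per length, in FPKM at 0 h, STAT3 was the highest at 34.9 ± 1.87 (SD, n = 2), followed by SOCS1 at 24.7 ± 3.31. SOCS7 (13.2 ± 1.92), SOCS2 (13 ± 0.431), SOCS6 (11.3 ± 0.0778) and SOCS3 (10.7 ± 3.19) followed, where the SOCS7 and SOCS3 libraries each overlapped those of SOCS2 and the SOCS3 libraries spanned those of SOCS6. SOCS4 (6.87 ± 1.29) and SOCS5 (6.38 ± 0.0495) overlapped, and LIFR (4.29 ± 0.728) and CISH (1.39 ± 0.106) were lowest. At 42 h, in 1 library, the order was SOCS3 at 147 FPKM, SOCS1 at 74.6, SOCS2 at 50.6, STAT3 at 19.6, SOCS6 at 17.1, SOCS7 at 11.1, LIFR at 7.84, SOCS4 at 4.25, SOCS5 at 4.11 and CISH at 0.65.

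Of 84 other genes of the pathway, 68 passed the filter of a mean of 1 CPM in the time series. Among these, 19 rose and 13 fell along the time trend, and 10 rose and 14 fell of 67 over the LDN doses. Over all genes tested the shares were 19.2% and 17.5% with time and 10.4% and 10.9% over LDN, and the counts of each list below are to be read against these. Of 15 cytokine receptors tested, 5 rose and 1 fell with time (all genes, 19.2% and 17.5%), and 1 rose and 4 fell with LDN (all genes, 10.4% and 10.9%). PRLR, the prolactin receptor, rose from 3.89 CPM at 0 h to 179 at 42 h (log2 change 5.53), and LEPR, the leptin receptor, rose from 1.99 to 13.5 CPM. IL6ST, which encodes gp130 itself, measured 15.1, 102 and 38.4 CPM after 0, 28 and 42 h and fell with LDN (-0.10 log2 per step ± 0.026, adjusted p = 0.0150 by edgeR's quasi-likelihood test). IL6R fell, from 1.90 to 0.245 CPM.

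Of 3 gp130 family ligands tested, CTF1 rose (1.34 to 5.22 CPM) and LIF fell (3.08 to 1.68 CPM) along the time trend. The contrast of 42 h against 0 h was not called for LIF (log2 change -0.88). Of 4 Janus kinases only TYK2 was called with time, rising from 25.4 to 48.3 CPM. Of 5 other STATs, STAT2 (26.5 to 59.8 CPM) and STAT6 (24.9 to 71.6 CPM) rose and STAT5B (55.5 to 26.4 CPM) fell. Over the LDN doses 1 of these 5 rose and 3 fell (all genes, 10.4% and 10.9%), with STAT2 and STAT6 among those that fell (-0.06 and -0.08 log2 per step).

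Of 10 other inhibitors none rose and 3 fell with time, among them SH2B3, an adaptor that restrains JAK2, from 56.9 to 19.3 CPM, with a rise over LDN of 0.10 log2 per step. Over the LDN doses 2 of these 10 rose and none fell (all genes, 10.4% and 10.9%). PIAS2 fell from 60.8 to 25.9 CPM, and PTPN2, a phosphatase of Janus kinases, from 39.3 to 26.5 CPM. The contrast of PTPN2 at 42 h against 0 h was not called (log2 change -0.57). None of the 6 partners of the SOCS box was called with time.

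Of 17 genes known as STAT3 or STAT5 targets, 8 rose and 4 fell with time (all genes, 19.2% and 17.5%), and 6 rose and 4 fell with LDN (all genes, 10.4% and 10.9%). CEBPD, a transcription factor of the acute phase response, rose from 3.34 to 174 CPM, BCL6 from 8.19 to 49.8 and CEBPB from 28.3 to 108. Before its rise BCL6 was lower, at 3.69 CPM at 4 h (log2 change -1.14 against 0 h) and 5.65 CPM at 12 h. KLF4 rose from 2.53 to 14.2 CPM and fell with LDN (-0.33 log2 per step ± 0.053), IRF1 rose from 4.03 to 17.4 CPM and fell with LDN (-0.19 ± 0.035), and TFCP2L1 rose from 5.98 to 45.1 CPM, with 104 CPM at 28 h, and fell with LDN (-0.13 ± 0.038). PIM kinases went different ways. PIM2 fell from 381 to 15.1 CPM and PIM1 from 76.1 to 33.3, whereas PIM3 rose from 41.1 to 116, and all of them rose with LDN (0.07, 0.08 and 0.15 log2 per step). CCND1, the cyclin D1 gene, fell from 146 to 20.4 CPM, with 238 CPM at 4 h. CEBPB rose with LDN by 0.06 log2 per step.

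Of 8 interferon-stimulated genes tested, 2 rose and 3 fell with time and none was called over LDN. IFI6 was at 3.52 CPM at 0 h, between 2.69 and 3.39 CPM from 4 to 28 h, and at 45.4 CPM in the 1 library at 42 h. IFITM1 fell from 81.4 to 13.3 CPM and MX1 from 9.89 to 1.68 CPM.

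**Figure D5:**
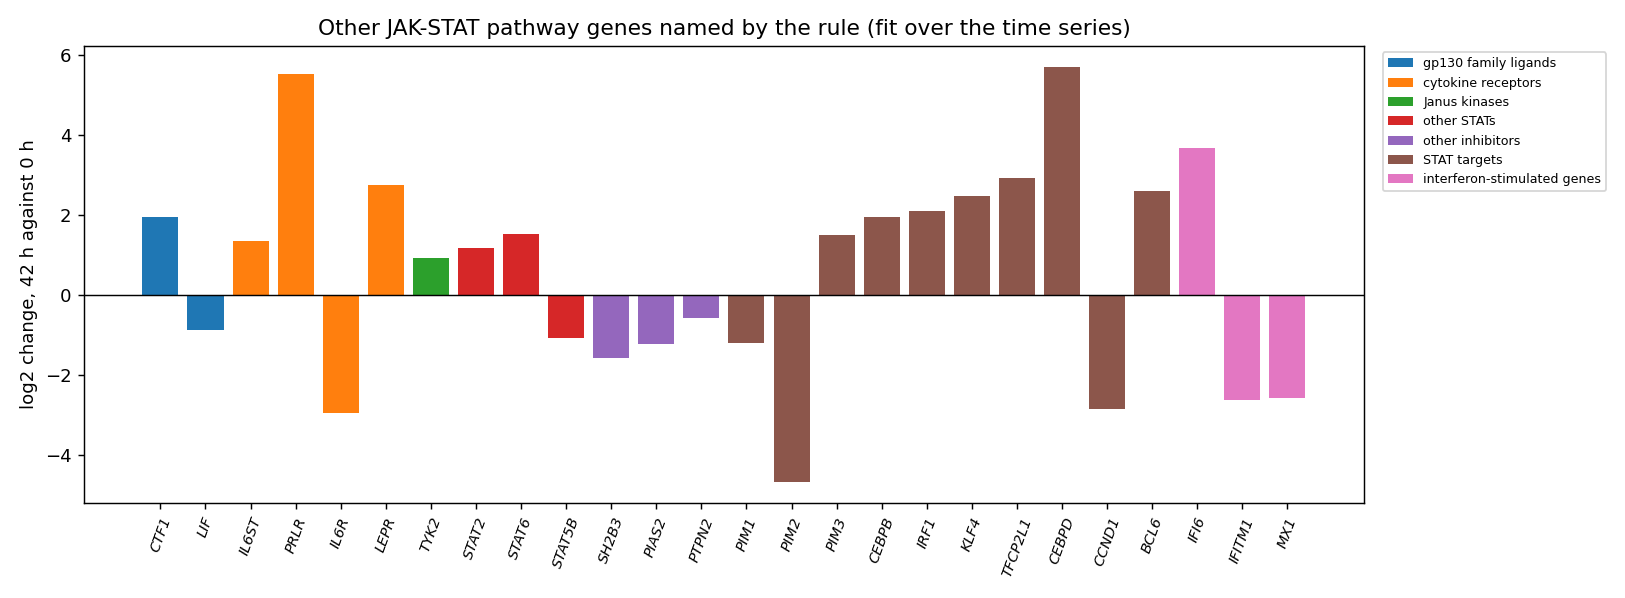
Fitted log2 change from 0 h to 42 h (vertical axis) of the 26 pathway genes named by a fixed rule, coloured by list. The bars run from -4.66 for PIM2 to 5.70 for CEBPD.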

How the data were processed

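Total RNA was extracted, and 13 libraries were sequenced after ribosomal RNA depletion (time series) or polyA selection (dose response). The authors trimmed reads with Cutadapt, aligned them to GRCh38 with STAR 2.7.8a and quantified genes with RSEM 1.3.3. The deposited tables hold expected counts, whole as deposited, and FPKM values made by the authors, in a separate table for each experiment, and tests were made within a table. Whether counting used strand, and the annotation release, are not given in the sources used here.

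Groups came from the sample labels. Counts were tested with edgeR 4.0.16 (R 4.3.3) by the quasi-likelihood test with TMM scaling and Benjamini-Hochberg adjustment over genes whose mean reached 1 CPM, and called at an adjusted p below 0.05. Time trends used hours over 7 libraries, dose trends used steps for 5 LDN doses, and contrasts of 4 h and 42 h against 0 h rest on 1 residual degree of freedom, so later libraries were assumed to vary like those at 0 h. The 5 non-human features stayed out of the tests. BMP4 without LDN against untreated has 1 library a side and no test, and log2 ratios use a pseudocount of 0.1 CPM. Intervals cover counting error only, at 95%. The labels do not say that the 0 h libraries are separate cultures, so p-values of the 4 h and 42 h contrasts may measure technical spread. Those of the trends rest on scatter about a line, which mixes misfit to the line with library error. The test code was run on simulated counts of a fixed spread, which does not show that the tests hold for these libraries. The authors' FPKM served for levels between genes and, with limma 3.58.1 on log2 values, as an alternative. DESeq2 1.42.0 was another. Promoter windows came from RefSeq (GRCh38.p14), and 1 promoter is not reported here.

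Members and pathway lists were chosen with earlier results of these data known. Named were all 10 members, pathway genes called in both trends and up to 3 more per list with the largest change at 42 h among those called in time.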

Additional observations from a re-analysis of the deposited data

How the results depend on the processing

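Of the 470 values of single genes recomputed under alternatives, 425 kept their direction and were labelled unchanged. A further 22 lost a call, 9 gained one, 10 changed sign and 4 kept their sign but moved beyond counting error. Where a test was run, unchanged meant the same side of the threshold. The 50 values against untreated had no test and were set against their counting interval. Contrasts without 1 of the 0 h libraries had no test either and were set against the 0 h SD. Leaving out 1 of 2 libraries can hardly exceed that SD, so their labels say nothing on stability. The count of members called along time was 4, and it was 2 without the filter on low counts, 7 with hours squared added (chosen after seeing the data) and 2 to 5 on leaving out each library in turn. The share of all genes called with hours squared is not given here, so that 7 has no background to be read against. Over the LDN doses it was 3, and it was 1 with DESeq2, 1 with FPKM and limma, and 1 to 3 on leaving out each dose. At 4 h it was 2, and 1 without the filter and 1 with DESeq2. At 42 h it was 4, and 7 on library totals, where CISH, SOCS4 and STAT3 were also called lower. Of 15976 genes tested on totals, 2415 were called upward and 3963 downward, against 3173 and 2851 with TMM. On totals the median log2 ratio of 42 h to 0 h over 9538 genes was -0.19, against 0.05 with TMM. The causes of the other changes were not tested.

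The 10 changes of sign were all in genes not called in that comparison. On leaving out each library in turn the time trend ran from -0.00773 to 0.00227 log2 per hour for SOCS7 and from -0.0268 to 0.0242 for LIFR, both turned without the 42 h library, and the SOCS1 dose trend ran from -0.0507 to 0.0102 per step, turned without 300 nM. The SOCS1 dose trend was 0.0270 with the untreated library added, that of SOCS6 was -0.00863 in FPKM with limma, and the log2 change of SOCS4 at 4 h was 0.0269 on library totals and 0.236 without 0 h replicate 1. Without that library, as values with no test, LIFR at 4 h was 0.0356 and SOCS7 at 42 h was 0.0836, and CISH without LDN against untreated was 0.0146 on library totals. The SOCS2 dose trend, the SOCS2 rise at 4 h, and the SOCS3 and SOCS1 time trends kept their calls under each alternative that gave a test.

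No paired analysis was possible because only the 0 h group has more than 1 replicate. With 1 library at each later time and at each dose, a change in a single library cannot be told apart from that library's own error, and counts of CISH (29 to 194) limit its precision most.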
